A study of Arabidopsis thaliana with 12 samples.

Results

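The genes described here mark the making of water-conducting xylem and of its thickened wall. They are 10 of the 37138 loci quantified in Arabidopsis thaliana root tips. The 10 were chosen by name for their known roles, with earlier results of these data known. VND6 (AT5G62380), VND7 (AT1G71930), MYB46 (AT5G12870) and MYB83 (AT3G08500) encode transcription factors of xylem fate. CESA4 (AT5G44030), CESA7 (AT5G17420), CESA8 (AT4G18780) and LAC4 (AT2G38080) build the secondary wall. ACL5 (AT5G19530) and T5L1 (AT1G68810) act earlier, in the young vascular tissue.

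Xylem vessels die as they mature, and what remains is a tube of secondary wall made of cellulose, xylan and lignin. VND6 and VND7 are NAC factors that switch on the vessel program, of metaxylem and protoxylem respectively, and MYB46 and MYB83 are the redundant MYB factors that they activate. CESA4, CESA7 and CESA8 are the catalytic subunits of one cellulose synthase complex, which needs each of them, and LAC4 is a laccase that joins lignin precursors in the wall. T5L1 is a bHLH relative of TMO5 that acts with LHW in young xylem cells, where this pair activates ACL5. ACL5 makes thermospermine, a polyamine that holds back xylem differentiation, partly by allowing translation of the SACL proteins that compete with T5L1 for LHW. In a root tip these genes are active in a few cell files only.

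Root tips of 0.2 cm came from 2 genotypes, wild-type Col-0 plants and a triple mutant, scl5 scl21 pat1, for which the labels name no alleles. About 100 seeds per sample were sown on nylon mesh over 1/2 MS medium. On day 7 the mesh went either to fresh control plates or to plates holding bleomycin, a DNA-breaking drug, at 0.5 µg/ml, where treatment lasted 24 h. Each of the 4 groups (Col-0 control, Col-0 bleomycin, triple mutant control and triple mutant bleomycin) held 3 biological replicates, so a library pools the tips of many seedlings. The series title places PAT1-type GRAS proteins, DOF3.4 and cell proliferation in regeneration after wounding. Libraries held 36.3 to 40.9 M reads, and 3 reads, taken as the floor, equal 0.0734 to 0.0827 CPM, the read count scaled to library size. In the triple mutant SCL5 was at 0.00867 CPM in control against 35.95 CPM in Col-0, SCL21 had no read in control, and PAT1 kept 9.53 CPM against 25.9 CPM (edgeR quasi-likelihood log2 fold change -1.44, Benjamini-Hochberg adjusted p = 0.0171). All 7 markers of root tip identity were detected in each group, at 151.9 to 189.0 CPM in sum.

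The 3 cellulose synthase genes moved together, so the stretch before each of their annotated transcription starts is shown. The sequences are the 250 bases upstream of the start in the RefSeq annotation of TAIR10.1, written 5′ to 3′ on the gene's own strand. CESA4 lies on the plus strand after chr5:17714140-17714389, CESA7 on the minus strand before chr5:5741501-5741750, and CESA8 on the minus strand before chr4:10316887-10317136. Capitals mark the tracheary element regulating element (TERE), a motif known from promoters of vessel genes, searched for by its published consensus on both strands.
CESA4: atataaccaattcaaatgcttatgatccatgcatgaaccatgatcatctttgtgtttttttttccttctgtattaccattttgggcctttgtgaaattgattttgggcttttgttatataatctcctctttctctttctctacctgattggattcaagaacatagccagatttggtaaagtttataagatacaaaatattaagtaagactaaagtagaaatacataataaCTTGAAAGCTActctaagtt
CESA7: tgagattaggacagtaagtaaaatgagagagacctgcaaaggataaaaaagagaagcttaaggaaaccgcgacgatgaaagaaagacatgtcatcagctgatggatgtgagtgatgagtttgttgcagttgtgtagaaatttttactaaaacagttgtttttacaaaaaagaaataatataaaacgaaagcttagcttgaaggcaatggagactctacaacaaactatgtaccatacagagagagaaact
CESA8: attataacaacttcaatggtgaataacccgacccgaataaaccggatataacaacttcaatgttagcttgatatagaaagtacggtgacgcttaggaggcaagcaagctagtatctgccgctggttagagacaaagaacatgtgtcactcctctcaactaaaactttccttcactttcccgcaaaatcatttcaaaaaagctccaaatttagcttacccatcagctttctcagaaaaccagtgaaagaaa
The motif stood in the CESA4 stretch, with its last base 10 bases before the annotated start and on the gene's own strand, and in no such stretch of the other 9 genes. Among all 27443 genes with such a stretch, 101 held it (0.368%). Of 88 related xylem and wall genes listed for comparison, it was found before LBD30, FLA11, XCP1 and MC9. A match of letters describes these windows only and says nothing of binding.

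Per length, ACL5 was the most abundant of the 10 transcripts on control medium and VND6 the least. In Col-0 control the mean level in TPM (Salmon's length-corrected abundance) was 18.6 ± 2.17 for ACL5 (SD, n = 3), 11.2 ± 1.65 for T5L1, 7.37 ± 4.63 for LAC4 and 5.85 ± 3.605 for CESA4. CESA7 followed at 4.63 ± 2.54 TPM, CESA8 at 3.52 ± 1.43 and MYB46 at 3.48 ± 0.562. VND7 was at 1.90 ± 0.974 TPM, MYB83 at 0.804 ± 0.406 and VND6 at 0.153 ± 0.186. Neighbours in this order did not overlap between libraries for ACL5 against T5L1, MYB46 against VND7, VND7 against MYB83, and MYB83 against VND6. The ranges of the other neighbours overlapped, namely T5L1 with LAC4, LAC4 with CESA4, CESA4 with CESA7, CESA7 with CESA8, and CESA8 with MYB46. After bleomycin T5L1 stood first in both genotypes, and ACL5 stood 5th in Col-0 and 4th in the triple mutant.

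**Figure D1:**
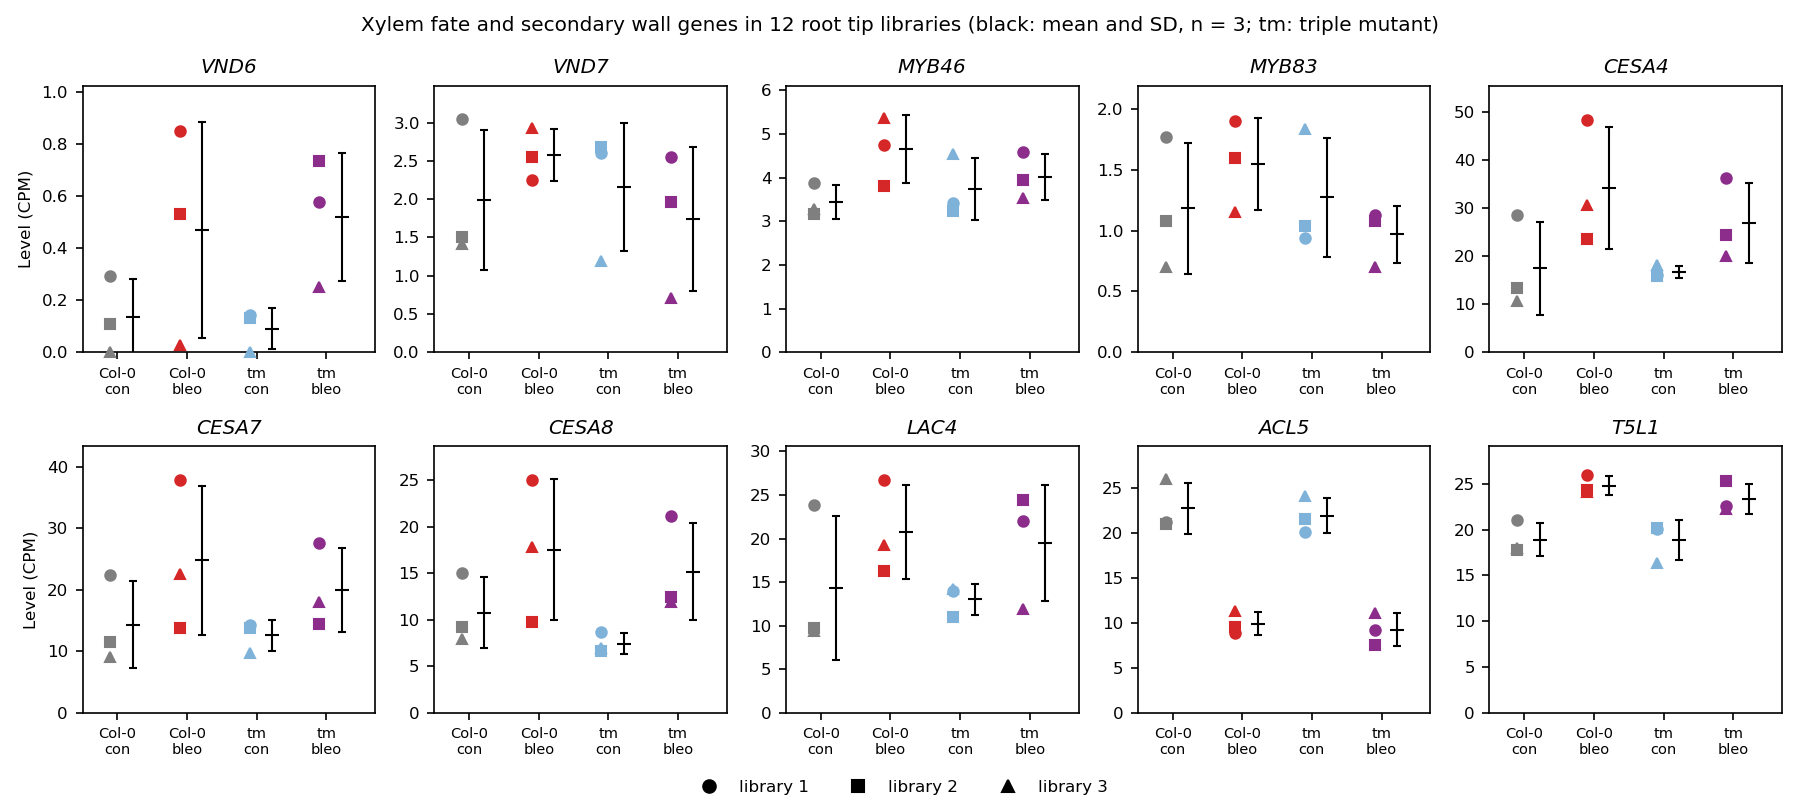
Level of each of the 10 genes in CPM (linear axis from 0) in the 12 libraries, with symbols for the library number within a group and black bars for mean and SD of 3 libraries. ACL5 is lower and T5L1 higher in all 6 bleomycin libraries than in any of the 6 control libraries, whereas library 1 of Col-0 control lies above the other Col-0 controls for the cellulose synthases and LAC4.

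Bleomycin lowered ACL5, the thermospermine synthase gene, 2.30-fold in Col-0 and 2.37-fold in the triple mutant, with the lowest adjusted p among the 10 genes. The upstream regulator gene T5L1 rose slightly, CESA4 and CESA8 rose when both genotypes were averaged, and the 4 genes for xylem fate factors did not pass in the main analysis. In Col-0, 1 of the 10 genes was called (adjusted p under 0.05) and it was lower, against 6.75% of the 21561 genes tested and 2.46% called lower. Triple mutant tips also gave 1 of 10, lower, against 8.01% of all genes and 3.81% lower. With the replicate number as a block, 5 of 10 were called in Col-0 (4 higher, 1 lower), beside 3437 of the 21561 genes. In the triple mutant the block called 2 of 10 (1 higher, 1 lower), beside 3633 genes. The average over both genotypes, which reuses the libraries of these comparisons, called 4 of 10, against 24.0% of all genes. Without Col-0 control 1 it called 6 of 10, and it called 2 of 10 without any one of triple mutant control 2, triple mutant bleomycin 1, Col-0 bleomycin 1, Col-0 control 3 or Col-0 control 2. The median log2 fold change of the 10 genes was 0.49 in Col-0, 0.44 in the triple mutant and 0.45 in the average, beside 0.01, 0.03 and 0.02 over all genes tested.

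ACL5 was at 21.2, 20.95 and 26.0 CPM in Col-0 controls 1 to 3 and at 8.84, 9.49 and 11.3 CPM in Col-0 bleomycin. Triple mutant tips had 20.1, 21.6 and 24.1 CPM in control and 9.16, 7.50 and 11.1 CPM after bleomycin. Control and bleomycin libraries did not overlap, and the ranges of the genotypes overlapped on either medium. The log2 fold change was -1.20 (SE 0.17, edgeR quasi-likelihood adjusted p = 0.0017) in Col-0. In the triple mutant it was -1.25 (SE 0.17, adjusted p = 0.00147). Both calls held in all 19 alternative analyses, with adjusted p up to 0.0217 in Col-0 and 0.0191 in the triple mutant. The difference between these responses was -0.04 (SE 0.24, adjusted p = 1). In bulk tissue, fewer cells that express the gene and less RNA in each such cell cannot be told apart. Salmon split ACL5 over 2 transcripts, whose levels were both lower after bleomycin. AT5G19530.2 went from 12.3 to 4.41 TPM in Col-0 and from 11.2 to 3.30 TPM in the triple mutant. AT5G19530.1 went from 6.36 to 3.86 TPM in Col-0 and from 5.43 to 3.95 TPM in the triple mutant. In 1 triple mutant bleomycin library all ACL5 reads were assigned to AT5G19530.1, and this estimated split was not tested.

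T5L1 was at 21.0, 17.8 and 18.0 CPM in Col-0 control and at 26.0, 24.4 and 24.1 CPM in Col-0 bleomycin. Triple mutant controls had 20.05, 20.1 and 16.4 CPM, and triple mutant bleomycin libraries 22.5, 25.3 and 22.2 CPM. All 6 bleomycin libraries lay above all 6 control libraries, by a small step. In the average over genotypes T5L1 rose by 0.35 on the log2 scale (SE 0.09, edgeR adjusted p = 0.0148), a 1.27-fold difference. It did not pass the test without the 4 libraries numbered 1 (adjusted p = 0.0705, an analysis chosen after seeing the data). Within a genotype its log2 fold change was 0.39 in Col-0 (SE 0.13, adjusted p = 0.0832) and 0.31 in the triple mutant (SE 0.13, adjusted p = 0.156). With the replicate number as a block, the Col-0 rise passed (adjusted p = 0.0407). Over the 12 libraries the levels of T5L1 and ACL5 had a Pearson correlation of -0.90, and of -0.66 once each group was centred on its mean. The points share treatment groups and replicate numbers, so these values only describe the libraries.

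The 3 secondary wall cellulose synthase genes had fitted levels of 1.59 to 2.04 times control after bleomycin, in either genotype, and varied widely between replicates. The Col-0 levels of CESA4 were 28.6, 13.4 and 10.6 CPM in control and 48.3, 23.55 and 30.7 CPM after bleomycin. Triple mutant CESA4 was at 16.1, 15.9 and 18.2 CPM in control and at 36.3, 24.4 and 20.05 CPM after bleomycin. The groups overlapped in Col-0, where control library 1 was higher than bleomycin library 2, and did not overlap in the triple mutant. CESA8 was at 15.05, 9.22 and 7.91 CPM in Col-0 control and at 25.0, 9.79 and 17.8 CPM in Col-0 bleomycin. Triple mutant CESA8 was at 8.71, 6.61 and 6.93 CPM in control and at 21.2, 12.4 and 11.9 CPM after bleomycin. CESA8 showed the same arrangement, with overlap in Col-0 and none in the triple mutant. CESA7 was at 22.4, 11.4 and 9.12 CPM in Col-0 control and at 37.85, 13.8 and 22.6 CPM in Col-0 bleomycin. Triple mutant CESA7 was at 14.3, 13.7 and 9.70 CPM in control and at 27.5, 14.4 and 17.9 CPM after bleomycin. Again only the triple mutant groups stood apart, and there by a narrow margin.

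Averaged over both genotypes, CESA4 rose by 0.82 on the log2 scale (SE 0.25, edgeR adjusted p = 0.0287) and CESA8 by 0.87 (SE 0.24, adjusted p = 0.0200). CESA7 was 0.73 higher (SE 0.27, adjusted p = 0.0688), which did not pass. In the unblocked fit these calls sat close to the threshold. The CESA4 call was lost without triple mutant bleomycin 1 (adjusted p = 0.0756), Col-0 bleomycin 1 (0.0757), Col-0 control 3 (0.0653), Col-0 control 2 (0.0777), triple mutant control 1 (0.0540) or triple mutant control 2 (0.0656). The CESA8 call was lost without triple mutant control 2 (0.0531), Col-0 control 3 (0.0536), Col-0 bleomycin 1 (0.0539), triple mutant bleomycin 1 (0.0557) or Col-0 control 2 (0.0559). CESA7 passed without Col-0 bleomycin 2 (0.0299), without Col-0 control 1 (0.0156) and with DESeq2 (0.0219). With the replicate number as a block all 3 passed in the average. The blocked edgeR adjusted p was 0.00294 for CESA4, 0.00703 for CESA7 and 0.000942 for CESA8.

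Within Col-0 none of the 3 passed in the unblocked fit. The log2 fold changes were 0.96 for CESA4 (SE 0.35, adjusted p = 0.112), 0.79 for CESA7 (SE 0.38, adjusted p = 0.230) and 0.71 for CESA8 (SE 0.34, adjusted p = 0.220). Deviations of same-numbered Col-0 libraries from their group means correlated at 0.502, 0.243 and 0.118, and those of unlike numbers at up to 0.202. With the replicate number as a block across all 12 libraries, all 3 genes rose in Col-0. The blocked log2 fold changes were 1.01 for CESA4 (SE 0.23, adjusted p = 0.0127), 0.79 for CESA7 (SE 0.23, adjusted p = 0.0370) and 0.68 for CESA8 (SE 0.20, adjusted p = 0.0370). Without Col-0 control 1 the CESA4 value was 1.51 (adjusted p = 0.0124), and without the 4 libraries numbered 1 it was 1.16 (adjusted p = 0.0168). DESeq2 also called CESA4 in Col-0 (adjusted p = 0.0345). In the triple mutant the values were 0.68 for CESA4 (SE 0.35, adjusted p = 0.244), 0.67 for CESA7 (SE 0.39, adjusted p = 0.304) and 1.03 for CESA8 (SE 0.34, adjusted p = 0.0821). DESeq2 called CESA8 there (adjusted p = 0.0254), as did the fit without Col-0 bleomycin 2 (adjusted p = 0.0477).

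The primary wall relatives CESA1, CESA3 and CESA6, which make cellulose in growing cells, also rose after bleomycin in the average. CESA1 was at 518 CPM in control and 702 CPM after bleomycin over both genotypes (log2 fold change 0.44, SE 0.09, adjusted p = 0.00457). CESA3 went from 404 to 586 CPM (0.54, SE 0.13, adjusted p = 0.00869) and CESA6 from 333 to 446 CPM (0.42, SE 0.10, adjusted p = 0.0119). All 3 passed in the average under each of its 18 alternatives. All 3 passed in the triple mutant too, but 0 of 3 did without triple mutant control 2, triple mutant control 3, triple mutant bleomycin 1 or triple mutant bleomycin 3, or without the 4 libraries numbered 1. It was 1 of 3 without Col-0 control 3, Col-0 bleomycin 3 or Col-0 control 2. In Col-0 the calls were 0 of 3 with unblocked edgeR and with DESeq2, although 2 of 3 had an unadjusted edgeR p under 0.05. With the replicate block 2 of 3 were called higher in Col-0. The difference between genotypes was not called for any of them.

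LAC4 was at 23.8, 9.68 and 9.42 CPM in Col-0 control and at 26.8, 16.3 and 19.3 CPM in Col-0 bleomycin. Triple mutant tips held LAC4 at 13.9, 10.96 and 14.2 CPM in control and at 22.1, 24.4 and 11.9 CPM after bleomycin. Its groups overlapped in both genotypes, through Col-0 control 1 and triple mutant bleomycin 3. The averaged log2 fold change was 0.56 (SE 0.25, adjusted p = 0.122). LAC4 passed only where Col-0 control 1 was left out, at 0.84 in the average (adjusted p = 0.00829) and 1.12 in Col-0 (adjusted p = 0.0347), or with the replicate block in the average (adjusted p = 0.0402).

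The 4 fate factor genes were low and did not pass the test in any comparison of the main analysis. VND6 had 12, 4 and 0 reads in Col-0 control libraries and 34, 21 and 1 reads in Col-0 after bleomycin. Triple mutant libraries had 5, 5 and 0 reads in control and 21, 30 and 10 after bleomycin. Most bleomycin libraries thus held more VND6 reads than the controls, and Col-0 bleomycin 3 held 1. The averaged log2 fold change was 2.13 (SE 1.01, adjusted p = 0.144), and its Col-0 bleomycin libraries disagreed. VND7 was at 3.04, 1.51 and 1.41 CPM in Col-0 control, at 2.25, 2.55 and 2.92 CPM in Col-0 bleomycin, and between 0.703 and 2.68 CPM in the triple mutant. Its averaged log2 fold change was 0.03 (SE 0.36, adjusted p = 0.960). The factors acting below the VND proteins did not pass either. MYB46 was between 3.17 and 3.88 CPM in Col-0 control and between 3.82 and 5.36 CPM in Col-0 bleomycin (averaged log2 fold change 0.27, SE 0.19, adjusted p = 0.319). MYB83 ranged from 0.703 to 1.90 CPM over all libraries, with an averaged log2 fold change of -0.003 (SE 0.36, adjusted p = 0.997).

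**Figure D2:**
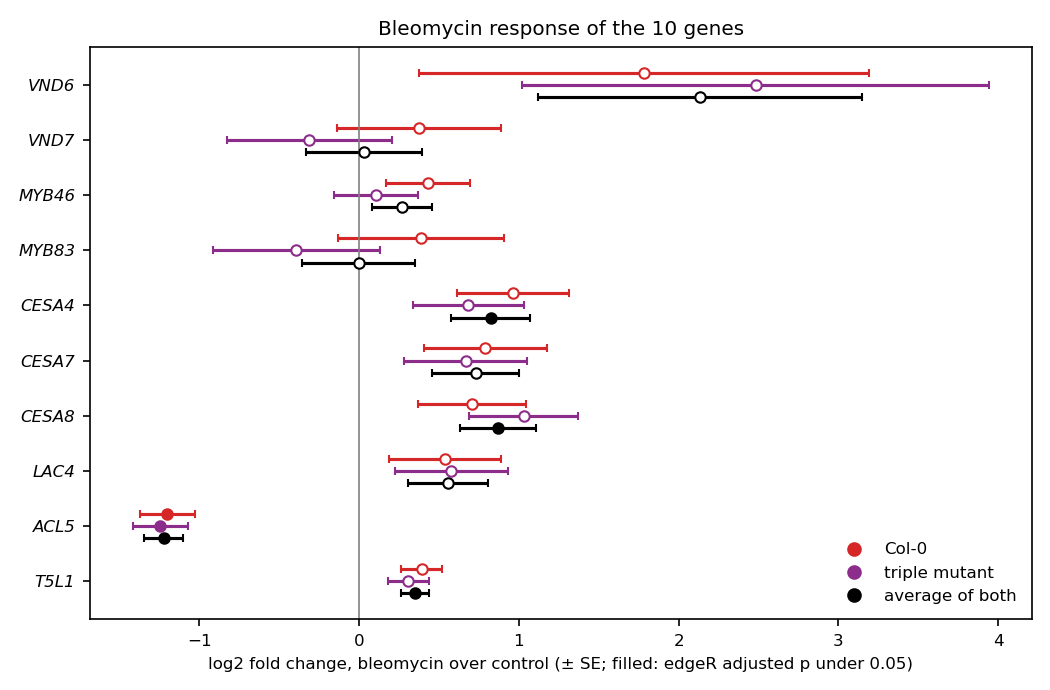
Log2 fold change of each gene after bleomycin, with SE from edgeR, in Col-0, in the triple mutant and averaged over both; filled points have an adjusted p under 0.05. ACL5 lies near -1.2 with filled points throughout, and CESA4, CESA8 and T5L1 are filled in the average alone.

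The triple mutant, in which PAT1 transcripts remained, gave no called change against Col-0 in the 10 genes. On control medium 0 of 10 were called by genotype (0.0278% of all genes), and after bleomycin 0 of 10 (0.0278%). The average over both media called 0 of 10 (0.0603%), and the interaction of genotype and bleomycin 0 of 10 (0.0% of all genes). Without the replicate block, none of the 10 had an unadjusted p under 0.05 in these 4 comparisons with edgeR's quasi-likelihood test, and DESeq2 called none. CESA8 had the lowest p, with 10.7 ± 3.80 CPM in Col-0 control and 7.42 ± 1.13 CPM in the triple mutant (SD, n = 3; log2 fold change -0.53, SE 0.34, adjusted p = 0.960). On control medium the SE of the cellulose synthase and LAC4 differences was 0.34 to 0.39 without the replicate block and 0.20 to 0.28 with it, and the block called none of them. With the block, 1 of the 10 genes had an unadjusted edgeR p under 0.05 on control medium, and 1 in the average over both media. On control medium the CESA4, CESA7 and LAC4 differences changed sign without Col-0 control 1, to 0.48, 0.29 and 0.45. For ACL5 the genotype difference was -0.05 on control medium (SE 0.17) and -0.09 after bleomycin (SE 0.17).

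Many genes that make the rest of the secondary wall rose after bleomycin. Lists of related genes were put together with earlier results of these data known, so their counts are given as description. In the average over genotypes, where 12.9% of all genes were called higher and 11.1% lower, 9 of 19 xylan and wall assembly genes rose and 0 fell. Of 17 lignin genes tested 12 rose and 0 fell, and of 6 genes of xylem cell death 5 rose and 0 fell. Their median log2 fold changes were 0.75, 0.65 and 0.73. Leaving out single libraries moved these counts to 7 to 13, 9 to 16 and 4 to 5, each reaching its highest without Col-0 control 1. In Col-0, where 4.29% of all genes were called higher, 1, 4 and 2 genes of these lists rose. In the triple mutant, with 4.2% higher, 1, 4 and 1 rose. With the replicate block 7, 14 and 5 rose in Col-0, where it called 3437 genes in either direction. In the triple mutant the block gave 8, 14 and 3, beside 3633 genes called in either direction.

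The xylan genes called in the average included IRX9 and IRX14, which act on the backbone, and IRX8 and PARVUS, which act on its end sequence. Other listed genes of xylan synthesis, among them IRX10 and FRA8, were not called. IRX9 went from 3.69 to 7.89 CPM (averaged log2 fold change 1.09, adjusted p = 0.0143) and IRX8 from 3.66 to 7.13 CPM (0.96, adjusted p = 0.0102). PARVUS went from 9.31 to 14.6 CPM (0.65, adjusted p = 0.00363) and was also called in Col-0 (adjusted p = 0.0272). IRX14 rose by 0.28 and IRX15-L, needed for normal xylan chains, by 1.13. GUX2, which adds glucuronic acid to xylan, rose by 1.21. The other called genes were CTL2, a chitinase-like protein, FLA11, a fasciclin-like wall protein, and TED7, a membrane protein of vessel cells, with log2 rises of 1.02, 0.71 and 1.62. FLA11 was called in the triple mutant too (0.89, adjusted p = 0.0319).

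In the lignin list, PAL1, the entry enzyme of phenylpropanoid metabolism, went from 227 to 451 CPM (averaged log2 fold change 0.99, SE 0.14, adjusted p = 0.000529). PAL1, C4H, CCR1 and CAD4, all enzymes of monolignol supply, were called in each genotype. C4H rose by 0.66, CCR1 by 0.53 and CAD4 by 0.65 in the average. The other enzymes that rose were PAL2, HCT, C3H1, CCoAOMT1 and COMT1, by 0.45 to 1.01. These enzymes also feed flavonoids and other phenolics, so they are not particular to xylem. Among the enzymes that couple lignin in the wall, LAC11 went from 12.1 to 27.1 CPM (1.16, adjusted p = 0.0255), PRX72 from 94.8 to 213 CPM (1.17, adjusted p = 0.00805) and PRX66 from 15.5 to 43.9 CPM (1.50, adjusted p = 0.00515). The laccase genes LAC17, of the same list, and LAC4 were not called in the average of the main analysis. Of the enzymes of vessel autolysis, XCP1 rose by 1.18 and XCP2 by 0.83, both cysteine proteases. RNS3, a ribonuclease, rose by 0.57, MC9, a metacaspase, by 0.65 and SCPL48, a carboxypeptidase-like protein, by 0.80.

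Of 16 listed regulators of the secondary wall, 11 were tested and 3 rose in the average, with a median log2 fold change of 0.65 over the 11. They were KNAT7 (7.49 to 12.6 CPM, log2 fold change 0.75), MYB63 (0.40) and SND3 (0.87). KNAT7 is known as a repressor of secondary wall genes and MYB63 as an activator of lignin genes. The count was 0 without triple mutant bleomycin 2 or without the 4 libraries numbered 1, and 4 without triple mutant control 1. Of 20 xylem fate regulators 1 rose and 2 fell, with a median of -0.10. VNI2, a NAC repressor that binds VND7, was at 42.0, 29.2 and 30.5 CPM in Col-0 control and at 78.15, 62.1 and 60.6 CPM in Col-0 bleomycin. Triple mutant VNI2 was at 39.25, 28.2 and 30.5 CPM in control and at 71.6, 74.4 and 60.4 CPM after bleomycin. Control and bleomycin libraries did not overlap in either genotype. Its log2 fold change was 0.98 in Col-0 (SE 0.17, adjusted p = 0.00618) and 1.08 in the triple mutant (SE 0.17, adjusted p = 0.00422), called under each of 19 alternatives.

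The 2 fate regulators that fell were LOG4 and AHP6. LOG4, a cytokinin-activating enzyme and known target of the TMO5 and LHW pair, went from 4.34 to 1.91 CPM (averaged log2 fold change -1.21, SE 0.32, adjusted p = 0.0156). AHP6, a cytokinin signalling inhibitor of protoxylem, went from 3.0 to 1.23 CPM (-1.51, SE 0.42, adjusted p = 0.0202) and was also called in the triple mutant (-2.34, adjusted p = 0.0350). Of 9 genes listed for the thermospermine pathway 2 fell and 1 rose in the average, with a median of -0.05 and beside 11.1% of all genes called lower. SACL2 went from 24.8 to 16.2 CPM (-0.61, SE 0.12, adjusted p = 0.0030) and passed in each genotype and in all 18 alternatives of the average. SACL3 went from 45.3 to 36.5 CPM (-0.31, SE 0.10, adjusted p = 0.0446), a call kept in 9 of 18 alternatives. SPMS, a spermine synthase, went from 40.7 to 49.6 CPM (0.29, SE 0.09, adjusted p = 0.0285), kept in 10 of 18. BUD2, which supplies the aminopropyl donor for thermospermine, was at 2.38 CPM in control and 1.12 CPM after bleomycin (adjusted p = 0.322).

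**Figure D3:**
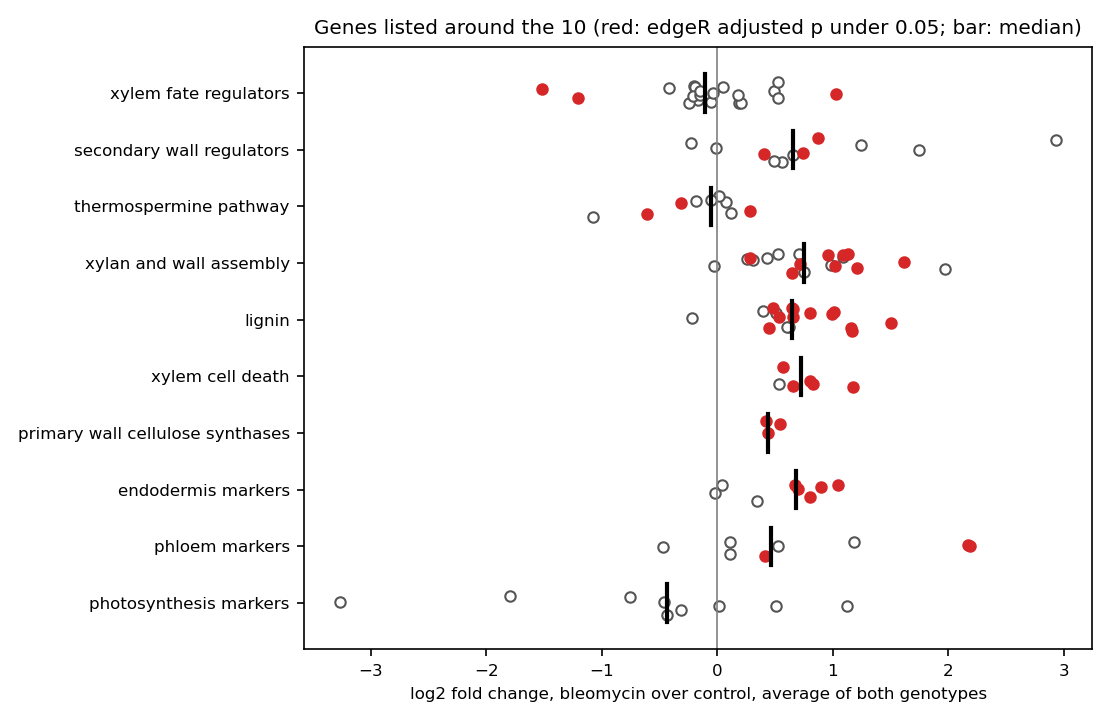
Averaged log2 fold change after bleomycin for every tested gene of 10 lists (points, red where the adjusted p is under 0.05; bars, list medians). The xylan, lignin and cell death points lie mostly right of 0, with medians of 0.75, 0.65 and 0.73, while the fate regulators and the thermospermine genes have medians near 0.

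Some markers of other cells moved along with the wall genes. Of 8 endodermis markers, genes of the Casparian strip and its control, 5 rose in the average, among them CASP1 and the peroxidase gene PER64, with a median of 0.68. CASP1, a Casparian strip membrane protein, went from 99.0 to 204 CPM (log2 fold change 1.04, adjusted p = 0.0167). The endodermis count fell to 1 without Col-0 control 3 or triple mutant control 2. Within each genotype 0 of the 8 endodermis markers were called, and 5 with the replicate block. Their summed level was 241 to 623 CPM in Col-0 control, 436 to 847 CPM in Col-0 bleomycin, 312 to 533 CPM in triple mutant control and 512 to 862 CPM in triple mutant bleomycin. No endodermis marker was at 0. Of 8 phloem markers 3 rose (OPS, SEOR1 and SEORa), and this count was 0 without Col-0 control 2, Col-0 bleomycin 1, triple mutant control 1 or triple mutant bleomycin 1, and without the 4 libraries numbered 1. Of 7 root tip markers 3 had an averaged log2 fold change above 0 and 4 below, with a median of -0.07. WOX5, of the quiescent centre, and BRN2, of the root cap, rose in the average. Without the 4 libraries numbered 1 neither did, and 1 of the 7 fell. With the replicate block 3 of the 7 rose and 1 fell. Of 9 photosynthesis genes 0 were called in the average by edgeR without the replicate block or by DESeq2, with 2 at an unadjusted edgeR p under 0.05. With the block 1 rose and 3 fell in the average. The sums of the 9 genes, 30.6 to 80.05 CPM, overlapped between the groups. The part of a change in tissue make-up in the wall gene result was not tested.

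Replicate number left its own trace on the wall genes. The median of CESA4, CESA7 and CESA8, as log2(CPM + 0.5) relative to the mean of the 12 libraries, was 0.38 in Col-0 control 1, while Col-0 controls 2 and 3 stood at -0.50 and -0.81. In Col-0 bleomycin it was 1.13, -0.24 and 0.48. In the triple mutant it was -0.40, -0.45 and -0.71 in control and 0.73, 0.09 and 0.03 after bleomycin. In each group this median was highest in the library numbered 1, in triple mutant control by a small margin and with CESA4 itself highest in library 3. Endodermis markers were at 0.32, -0.93 and -0.78 in Col-0 controls and 0.71, -0.17 and 0.32 after bleomycin in Col-0, again with library 1 on top. Photosynthesis markers were at 0.65, -0.002 and -0.34 in Col-0 controls and 0.66, 0.18 and -0.39 in the controls of the triple mutant. Without the 4 libraries numbered 1, 2 of the 10 genes were called in Col-0 (ACL5 and CESA4) and 3 in the average (ACL5, CESA4 and CESA8). The labels do not say what a shared number stands for.

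**Figure D4:**
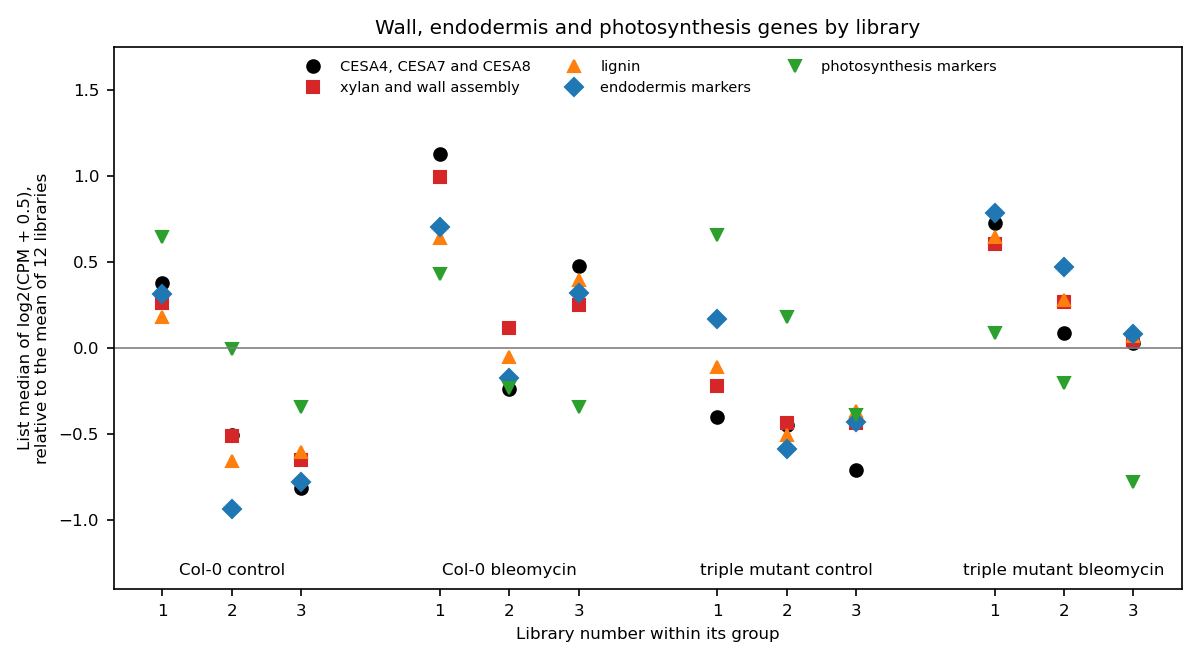
List medians of log2(CPM + 0.5), relative to the mean of 12 libraries, for the 3 cellulose synthases, 2 wall lists, endodermis markers and photosynthesis markers, by library. The cellulose synthase, xylan, lignin and endodermis medians sit highest in library 1 of each group, between -0.40 in triple mutant control 1 and 1.13 in Col-0 bleomycin 1 for the cellulose synthases.

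Levels of the wall genes were correlated across libraries. Over 12 libraries, on the log2(CPM + 0.5) scale, the Pearson correlation was 0.93 for CESA7 with CESA8, 0.92 for CESA4 with CESA7, and 0.90 for CESA4 with CESA8. LAC4 was at 0.91 with CESA4, 0.76 with CESA7 and 0.79 with CESA8, and MYB46 at 0.79 with CESA4. Of 18741 genes compared, the 10 most like the mean of the 3 were RAN1, a copper-transporting ATPase, AT5G44380, AT5G49760, XDH1, RD21A, AAE3, AT3G51330, XTH30, AAE7 and AT3G60450. Their correlations were 0.97 to 0.98. None of these 10 belongs to the lists above, whose nearest gene was CTL2 (0.96, rank 14), followed by PRX66 (rank 27), XCP1 (rank 37) and LAC11 (rank 50). On the log2(TPM + 0.5) scale 8 of the 10 were again among the nearest 10, and with groups centred on their means 2 were. These libraries share treatment groups and replicate numbers, so likeness here describes the libraries.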

How the data were processed

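The authors deposited 1 table per library of 88971 transcripts that gives, per the file headers, estimated counts, TPM and effective lengths. The submitters' processing notes name Salmon 0.9.1 and CASAVA; no source used here gives the build, annotation or options. Per the labels' protocols, RNA was isolated with QIAGEN RNeasy Plant Mini columns and made into NEBNext Ultra libraries. Transcripts of transposable elements (30576, with 0.067% to 0.091% of the reads) were left out, and the deposited counts were added up by gene and rounded to whole numbers. TPM, deposited by the authors, was summed per gene and used for levels between genes, and the effective length was used for length-scaled counts. Names, and the stretches upstream of the transcription starts, came from RefSeq TAIR10.1; 79.7% of the transcripts found in both had the same length there.

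edgeR 4.0.16 in R 4.3.3 fitted the quasi-likelihood model to the 12 libraries together, by group alone, with TMM scaling and filterByExpr, which left 21561 genes, among them all 10 described. There were 7 comparisons, adjusted by Benjamini-Hochberg over all genes at 0.05. The code was tested on simulated data. Alternatives were RLE scaling, no filter, DESeq2 1.42.0, a replicate block, length-scaled counts, only the 2 groups compared, each library left out in turn, and, chosen after seeing the data, no libraries numbered 1. Replicates are biological per the labels, and p-values reflect the spread between them. Replicates differed beyond sampling noise (chi-square over degrees of freedom 18.2 to 96.7).

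The 10 genes and 12 lists of 126 genes were chosen with earlier results of these data known. Named were the 10 genes, list genes called in any comparison, CESA1, CESA3 and CESA6, the 3 mutated genes and the 10 genes most like the cellulose synthases; BUD2 was named after its values were seen, and some called marker genes are not reported by name here. Deviations of same-numbered libraries from their group means correlated at 0.50, 0.24 and 0.12 between Col-0 control and Col-0 bleomycin. Unlike numbers of these 2 groups reached 0.202, above the value for number 3. The 2 groups were taken as paired from the data, since the labels do not say what a number stands for.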

Additional observations from a re-analysis of the deposited data

How the results depend on the processing

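No direction of a called gene turned. Of the log2 fold changes of the 10 genes under all alternatives, 12 lost a call and 19 gained one. Another 13, uncalled, changed sign and moved by at least the SE of the main fit. The remaining 1254 kept their side of the threshold, and uncalled ones that changed sign by less than that SE are counted among them. RLE scaling, no filter and length-scaled counts left the counts of the 10 genes called as they were. With DESeq2, 3 were called in Col-0 and 2 in the triple mutant, and without the 4 libraries numbered 1, 2 in Col-0. Leaving out single libraries gave 1 to 3 in Col-0, 1 to 2 in the triple mutant and 2 to 6 in the average.

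With the replicate block, 5 of the 10 genes were called in Col-0, 2 in the triple mutant (ACL5 and CESA8) and 7 in the average, where VND6 passed (adjusted p = 0.0439). Over all 21561 genes tested the block gave 3437 calls in Col-0, 3633 in the triple mutant, 7036 in the average and 10 by genotype after bleomycin. By the same measure 4 of the 6 pairs of groups were paired, among them Col-0 with triple mutant on control medium (0.247, 0.106 and 0.142) and after bleomycin (0.590, 0.335 and 0.378). Triple mutant control and bleomycin missed the cutoff (0.279, 0.046 and 0.101), although unlike numbers there reached only 0.051. Whether the numbers pair all 4 groups was thus not settled by this cutoff. The block changed no call of the 10 genes by genotype.

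Over all genes, calls in Col-0 were 1455, against 2761 with DESeq2, 825 with only the 2 groups and 356 to 2081 with a library left out. In the triple mutant they were 1727, against 2856 with DESeq2, 510 to 1853 with a library left out and 718 without the libraries numbered 1. The average had 5173, against 3496 to 5580 and 3220. By genotype, 6 calls on control medium became 25 with DESeq2, 4 to 9 with a library left out and 10 without the libraries numbered 1. The 6 after bleomycin became 23 with DESeq2, 10 without a filter, 5 to 10 with a library left out and 11 without the libraries numbered 1. The 13 in the genotype average became 26 with DESeq2 and 9 to 14 with a library left out. The cause of these shifts was not tested.

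At this depth VND6 had 10 to 61 reads per group and did not reach the floor of 3 reads in 3 libraries. They were library 3 of Col-0 control, of Col-0 bleomycin and of triple mutant control. Its read numbers also differed within groups, and in each group library 3 held the fewest.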
